A study of Mus musculus with 14 samples.

Results

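The genes described here encode the proteins of basement membranes, the thin sheets of matrix that underlie epithelia and wrap blood vessels and muscle. They comprise 31 genes chosen by name from what their proteins are known to do: 6 collagen IV chains, 10 laminin chains, 2 nidogens, 4 proteoglycans, 4 genes of the nephronectin and tubulointerstitial nephritis antigen group, 3 of the Fraser complex and 2 SMOC genes. The choice was made with earlier results of these data known, so the shares set beside all genes below are descriptive only. The 31 genes were found among 18193 genes with 1 symbol on the array, as 57 of its 45101 probe sets, which are groups of probes that measure 1 transcript. Of the 31 genes, 27 passed a filter on low signal and were tested. The other 4 were Lama1, Lamc3, Col15a1 and Frem2, whose signals ran from 21.17 to 57.16 over all arrays against a filter at 53.4.

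Total RNA of whole lungs was measured on 1-colour Affymetrix arrays, 1 per sample, in C57BL/6 mice aged 20 weeks. The 4 wild type samples carry the numbers 1, 3, 4 and 5, and the 5 CD151KO and 5 CD9KO samples the numbers 1 to 5. CD151KO mice lack CD151 and CD9KO mice lack CD9, both tetraspanins, which are membrane proteins that gather integrins and other partners into clusters. The labels do not give the sex of the mice or how the alleles were made, nor whether each sample is a different mouse. The p-values therefore reflect the spread between the samples as deposited, and part of that spread may be technical.

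A basement membrane is built on a laminin polymer that cells hold through integrins and dystroglycan, and on a collagen IV network that gives it tensile strength, with nidogens and perlecan linking both. In the alveolus the epithelium and the capillary endothelium share a fused basement membrane through which gas diffuses. CD151 is known for binding the laminin-binding integrins, and the comparisons below address the transcripts of the matrix those integrins hold.

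The knocked-out genes were low where the labels put them. Cd151 had a signal of 5330 ± 372 (SD, n = 4) in the wild type arrays, 1058 ± 17.7 (n = 5) in those of CD151KO and 4987 ± 149 (n = 5) in those of CD9KO, and Cd9 had 8096 ± 69.7, 8232 ± 265 and 667.1 ± 52.3. Where the probes lie relative to the deleted parts was not given in the labels. On the first principal component, which held 37.5% of the variance over all genes tested, the arrays numbered 1 in wild type and in CD151KO stood apart at -18.48 and -17.23, the other arrays of these groups lay between -8.01 and 2.46, and the CD9KO arrays between 7.23 and 13.35. The numbers 1, 3, 4 and 5 came in the same order in wild type and in CD151KO. The hybridisation control BioB also differed, with geometric means of 309.9 to 347 on the wild type arrays, 356.5 to 416.6 on the CD151KO arrays and 354.1 to 433.7 on the CD9KO arrays; its part in the results below was not tested. The lung markers were at high levels in every group, with mean log2 levels between 12.157 and 12.366 for 7 alveolar type 1 genes, 12.971 and 13.138 for 5 alveolar type 2 genes and 11.096 and 11.351 for 8 endothelial genes.

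The collagen IV genes lie head to head in pairs, the genes of a pair lying start to start and read in opposite directions. In the RefSeq annotation of GRCm38.p6, Col4a1 (chromosome 8, 11198423 to 11312889) and Col4a2 (11312805 to 11449287) share 85 bases, Col4a4 (chromosome 1, 82448419 to 82587034) and Col4a3 (82586921 to 82722059) share 114 bases, and Col4a6 (chromosome X, 141165403 to 141474095) and Col4a5 (141475370 to 141689236) lie 1274 bases apart. The promoter windows of the first and the last pair are shown, since the genes of each pair are also set against each other over the arrays further on. Each window runs from 250 bases before to 50 bases after a start position within the gene and is written along the gene's own strand. That position is 11312826 for Col4a1, 11312805 for Col4a2, 141475419 for Col4a5 and 141474076 for Col4a6. Except for Col4a2 it lies inside the outer end given above, so distances between these positions differ from those between the genes. Capitals mark 2 motifs, the CCAAT box in the letters CCAAT or its reverse complement ATTGG, and the GC box in the letters GGGCGG or its reverse complement CCGCCC.
Col4a1: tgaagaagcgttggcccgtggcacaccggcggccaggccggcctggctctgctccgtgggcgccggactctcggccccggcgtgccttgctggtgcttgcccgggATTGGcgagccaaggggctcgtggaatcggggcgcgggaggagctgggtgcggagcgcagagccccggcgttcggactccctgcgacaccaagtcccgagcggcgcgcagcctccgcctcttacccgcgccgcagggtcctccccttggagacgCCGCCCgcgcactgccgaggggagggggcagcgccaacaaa
Col4a2: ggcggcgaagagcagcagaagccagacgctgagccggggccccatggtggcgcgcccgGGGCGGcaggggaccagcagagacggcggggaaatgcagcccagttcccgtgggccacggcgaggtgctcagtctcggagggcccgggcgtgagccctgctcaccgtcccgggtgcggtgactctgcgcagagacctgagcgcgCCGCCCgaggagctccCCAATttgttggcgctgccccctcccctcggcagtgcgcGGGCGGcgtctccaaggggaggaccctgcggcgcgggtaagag
Col4a5: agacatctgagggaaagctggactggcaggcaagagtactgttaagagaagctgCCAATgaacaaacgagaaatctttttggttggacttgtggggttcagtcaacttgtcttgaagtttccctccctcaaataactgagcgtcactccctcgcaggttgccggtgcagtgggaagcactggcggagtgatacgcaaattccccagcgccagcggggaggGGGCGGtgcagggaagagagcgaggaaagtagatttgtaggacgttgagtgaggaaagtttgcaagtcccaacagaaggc
Col4a6: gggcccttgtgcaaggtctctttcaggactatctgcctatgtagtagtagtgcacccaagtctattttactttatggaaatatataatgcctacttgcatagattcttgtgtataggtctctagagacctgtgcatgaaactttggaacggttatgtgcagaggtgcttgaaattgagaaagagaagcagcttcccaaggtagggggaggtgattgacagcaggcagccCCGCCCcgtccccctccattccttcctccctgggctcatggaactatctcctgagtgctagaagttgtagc
The Col4a1 window is chr8:11312777-11313076 on the minus strand and the Col4a2 window chr8:11312555-11312854 on the plus strand. They share 78 bases, their start positions lie 21 bases apart, and their GC contents are 74% and 73.7% against a median of 52.7% over all windows. The Col4a5 window is chrX:141475169-141475468 on the plus strand with 52.7% GC, and the Col4a6 window chrX:141474027-141474326 on the minus strand with 48.3%, with start positions 1343 bases apart. Of 32851 windows of this length in the RefSeq table, 37.4% hold a CCAAT box, 35.7% a GC box and 13.6% a TATA box, searched as TATAAA or its reverse complement TTTATA. The table holds 21 of the 31 genes in 28 windows, of which 10 hold a CCAAT box, 16 a GC box and 0 a TATA box. These matches describe letters, not bound sites.

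The first comparison asked whether basement membrane transcripts differ in lungs without CD151. In CD151KO against wild type, 0 of the 27 tested genes passed at an adjusted p under 0.05 by limma, where 0.778% of all 12985 genes did. At an unadjusted p under 0.05 there were 6 of 27 (22.2%) against 11.1% of all genes, and all 6 were higher in CD151KO: Col4a1, Col4a2, Col4a4, Lama3, Lama5 and Tinag. In all, 24 of the 27 had a higher mean in CD151KO, against 54% of all genes, with a median log2 difference of 0.083 against 0.008. The groups did not overlap for 3 of 27 (11.1%), Col4a1, Col4a2 and Lama5, all higher, against 4.54% of all genes in either direction. By array, 15 to 22 of the 27 genes stood above their own mean over the 14 arrays in CD151KO, 6 to 14 in wild type and 5 to 19 in CD9KO. In whole lung, more cells of a type and more RNA per cell cannot be told apart.

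The second comparison put lungs without CD9 against the same 4 wild type arrays. In CD9KO against wild type 3 of 27 genes (11.1%) passed, against 5.51% of all genes: Tinagl1, Nid1 and Lamc1, all higher. At an unadjusted p under 0.05 there were 10 (37%, against 25.4% of all genes), 8 higher and 2 lower. Here 14 of the 27 stood higher, and the median of 0.005 lay beside 0.004 for all genes. The groups did not overlap for Col4a2, Lama5 and Tinagl1, which is 11.1% of the 27 against 11.8% of all genes.

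The third comparison tested whether the knockouts differ from each other. The wild type means do not enter this difference, but the wild type arrays enter the estimate of the spread. With only the CD151KO and CD9KO arrays fitted 7 genes passed, Nid1 and Fras1 in addition and Col4a5 no longer. In that fit 11.5% of all genes passed. In CD151KO against CD9KO 6 of 27 genes (22.2%) passed, against 10.1% of all genes: Col4a4, Col4a5, Lama3, Lamb3 and Tinag were higher in CD151KO and Tinagl1 was lower. At an unadjusted p under 0.05 there were 10 (37%, against 27.6%). Means were higher in CD151KO for 18 of 27, with a median of 0.045 against 0.002 for all genes. The groups did not overlap for Col4a4, Lamb3, Fras1 and Tinagl1, which is 14.8% against 10.6% of all genes. Without the CD151KO array 1, or without the array 2, the count fell to 3, Col4a4 and Lamb3 with Tinagl1. The share of all genes fell as well, to 5.34% and 6.59%. Without both number 1 arrays that stood apart, 1 gene passed in CD9KO against wild type, Tinagl1, beside 3.12% of all genes. Between the knockouts 5 passed, beside 9.43% of all genes.

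**Figure D1:**
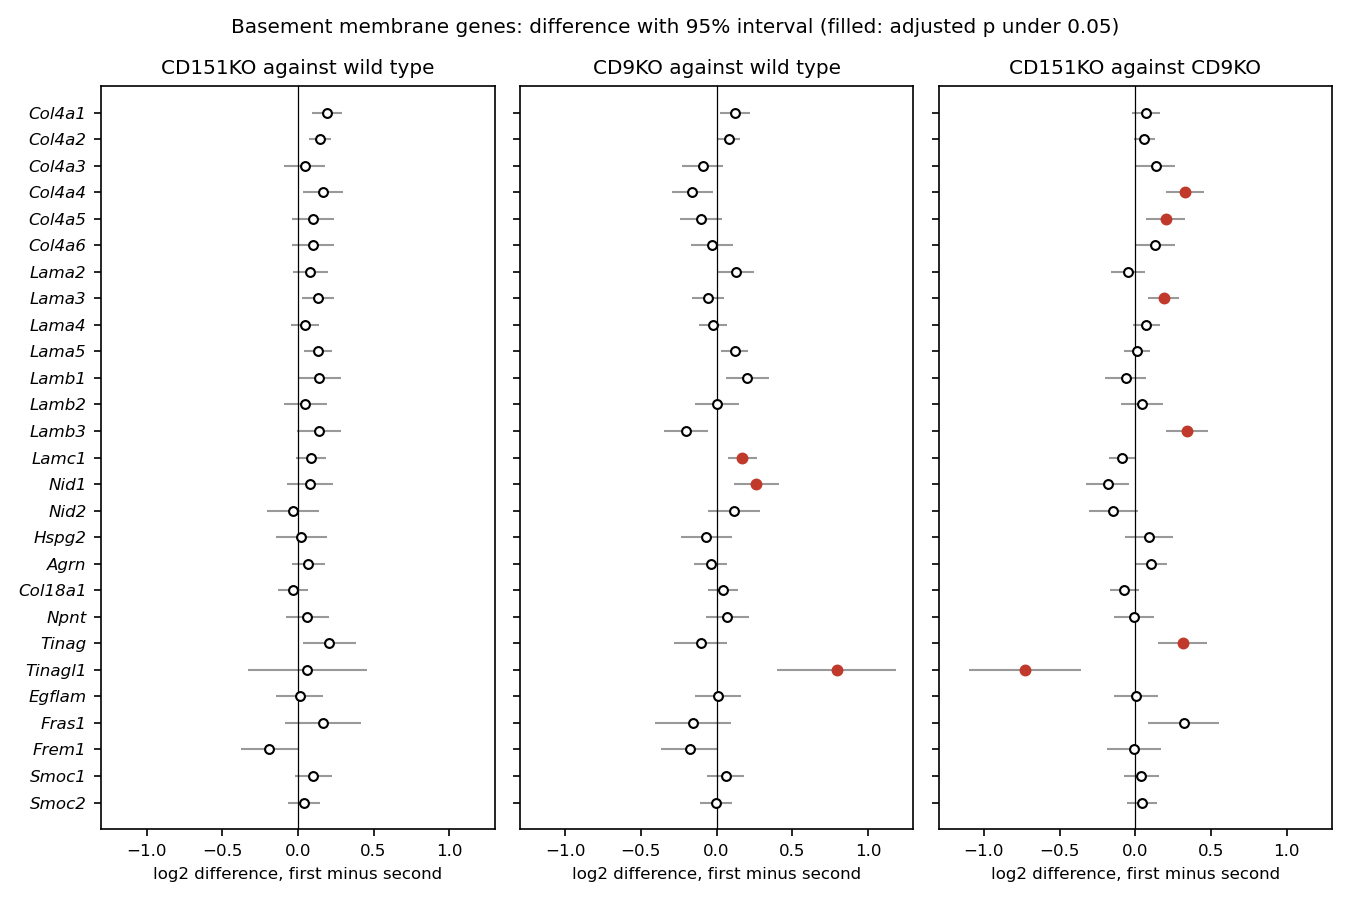
Log2 difference of each of the 27 tested basement membrane genes with its 95% interval from limma, in the 3 comparisons, first group minus second; filled red points passed at an adjusted p under 0.05. In CD151KO against wild type 24 points lie right of 0 and none is filled, while Tinagl1 stands far to the right in CD9KO against wild type and far to the left between the knockouts.

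Collagen IV is assembled from 3 chains into protomers, of which the chains of Col4a1 and Col4a2 form the widespread kind and those of Col4a3, Col4a4 and Col4a5 the kind found in the alveolus and the glomerulus. All 6 chains had a higher mean in CD151KO than in wild type, with differences from 0.044 to 0.194 and a median of 0.123. Against CD9KO the 6 were again higher in CD151KO, from 0.06 to 0.328, and 2 of them passed (10.1% of all genes did). In CD9KO against wild type they split, with Col4a1 and Col4a2 higher and Col4a3, Col4a4, Col4a5 and Col4a6 lower, and 0 of the 6 passed by limma (5.51% of all genes did), with 3 at an unadjusted p under 0.05 (25.4% of all genes). For Col4a6 a second probe set had the other sign (0.042).

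Col4a1 read 4182, 4088, 3893 and 3772 in wild type, 4413, 4285, 4481, 4593 and 5047 in CD151KO, and 4374, 4105, 4249, 4544 and 4443 in CD9KO. All 5 CD151KO arrays lay above all wild type arrays, and CD9KO array 2 lay within the wild type range. The log2 difference was 0.19 ± 0.047 (SE; 95% interval 0.094 to 0.294; limma, adjusted p = 0.0783) in CD151KO and 0.12 ± 0.047 (adjusted p = 0.114) in CD9KO, and the knockouts differed by 0.07 (adjusted p = 0.324). A second, dimmer probe set of Col4a1 read 842.5, 848.6, 836.4 and 801.6 in wild type, 935.3, 1065, 957.2, 962.8 and 1041 in CD151KO, and 963.6, 947.3, 1023, 1088 and 1021 in CD9KO. Every knockout array lay above every wild type array there. When each probe set was tested as its own feature, this one passed in CD151KO (0.25 ± 0.048, limma adjusted p = 0.0288) and in CD9KO (0.27 ± 0.048, adjusted p = 0.0102), where 0.627% and 6.78% of all 22951 probe sets did.

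Col4a2, the partner of Col4a1 in the same protomer, read 2841, 2774, 2762 and 2747 in wild type, 2978, 3135, 2922, 3184 and 3162 in CD151KO, and 3000, 2863, 2922, 3095 and 2872 in CD9KO. Both knockouts lay wholly above wild type, by small steps over a narrow wild type range. The differences were 0.14 ± 0.034 (limma, adjusted p = 0.0718) in CD151KO and 0.08 ± 0.034 (adjusted p = 0.137) in CD9KO. Weighting arrays by their fit made both Col4a1 (0.23, adjusted p = 0.00813) and Col4a2 (0.17, adjusted p = 0.00807) pass in CD151KO. In that fit 2.58% of all genes passed. Quantile normalization made Col4a2 pass (adjusted p = 0.0394, beside 0.77% of all genes). Col4a1 also passed in CD9KO with array weights, beside 8.39% of all genes. The mean of both Col4a1 probe sets passed in CD151KO (0.22, adjusted p = 0.0253) and in CD9KO, beside 0.675% and 5.16% of all genes. Smooth muscle markers, whose cells also lay down collagen IV, were higher than in wild type for 6 of 6 in both knockouts. Of them 1 passed in CD151KO (Actg2) and 4 in CD9KO (Actg2, Cnn1, Myh11 and Tagln). Between the knockouts all 6 were lower in CD151KO. Col4a1 and Col4a2 differed there by 0.07 and 0.06 (limma, adjusted p = 0.324 and 0.242), neither passing. The second Col4a1 probe set differed by -0.024 (adjusted p = 0.79 over every probe set). The mean log2 level of these markers was 9.493 to 9.634 in wild type, 9.706 to 9.888 in CD151KO and 9.773 to 10.08 in CD9KO, with none at 0. Their part in the collagen values was not tested.

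Of the 6 collagen IV chains, Col4a4 differed most between the knockouts. It read 2074, 1889, 1708 and 1662 in wild type, 2204, 2164, 1940, 2047 and 1929 in CD151KO, and 1701, 1666, 1687, 1519 and 1599 in CD9KO. The lowest CD151KO array stood above the highest CD9KO array, and the wild type arrays spanned the gap between them. CD151KO was 1.255-fold higher than CD9KO (log2 difference 0.33 ± 0.059, limma, adjusted p = 0.00488), while against wild type it was 0.17 higher (adjusted p = 0.297) and CD9KO 0.16 lower (log2 difference -0.16, adjusted p = 0.125). Both other Col4a4 probe sets had the same direction between the knockouts, at 0.29 (adjusted p = 0.00841) and 0.22 (adjusted p = 0.0655), in the test of every probe set, where 7.7% of probe sets passed.

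Col4a5, the third chain of that protomer, read 1780, 1582, 1756 and 1721 in wild type, 1894, 1870, 1718, 1942 and 1740 in CD151KO, and 1706, 1453, 1770, 1638 and 1417 in CD9KO. The groups overlapped, and 2 of the CD9KO arrays, numbers 2 and 5, were the lowest of all 14. CD151KO was higher than CD9KO by 0.20 ± 0.061 (1.149-fold; limma, adjusted p = 0.0495), a value at the threshold. Leaving out any one of 10 arrays (wild type 3, 4 or 5, CD151KO 1, 2, 3 or 4, CD9KO 2, 4 or 5) ended the call, with differences of 0.16 to 0.22 and adjusted p of 0.0516 to 0.122. The second Col4a5 probe set read 514.5 to 609.3 in wild type, 533.6 to 611.1 in CD151KO and 442.2 to 510 in CD9KO, so that CD9KO lay wholly below both other groups. It differed between the knockouts by 0.23 ± 0.057 (adjusted p = 0.026).

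Col4a3 read 1302, 1214, 1213 and 1230 in wild type, 1267, 1490, 1120, 1304 and 1235 in CD151KO, and 1258, 1133, 1183, 1146 and 1096 in CD9KO. The groups overlapped, and the CD151KO spread rested on array 2, the highest, and array 3, which lay below every wild type array. The difference between the knockouts was 0.14 ± 0.06 (limma, adjusted p = 0.159). On the second Col4a3 probe set it was 0.172 (adjusted p = 0.0918 over every probe set). Col4a6, whose chain pairs with that of Col4a5 in smooth muscle, had a lower signal, 175.7 to 204.4 in wild type, 195.3 to 215.5 in CD151KO and 159.3 to 202.9 in CD9KO, with differences of 0.10 (adjusted p = 0.613), -0.03 (adjusted p = 0.815) and, between the knockouts, 0.13 (adjusted p = 0.187). The second Col4a6 probe set gave 0.155, 0.042 and 0.113 (adjusted p = 0.224, 0.628 and 0.152 over every probe set).

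**Figure D2:**
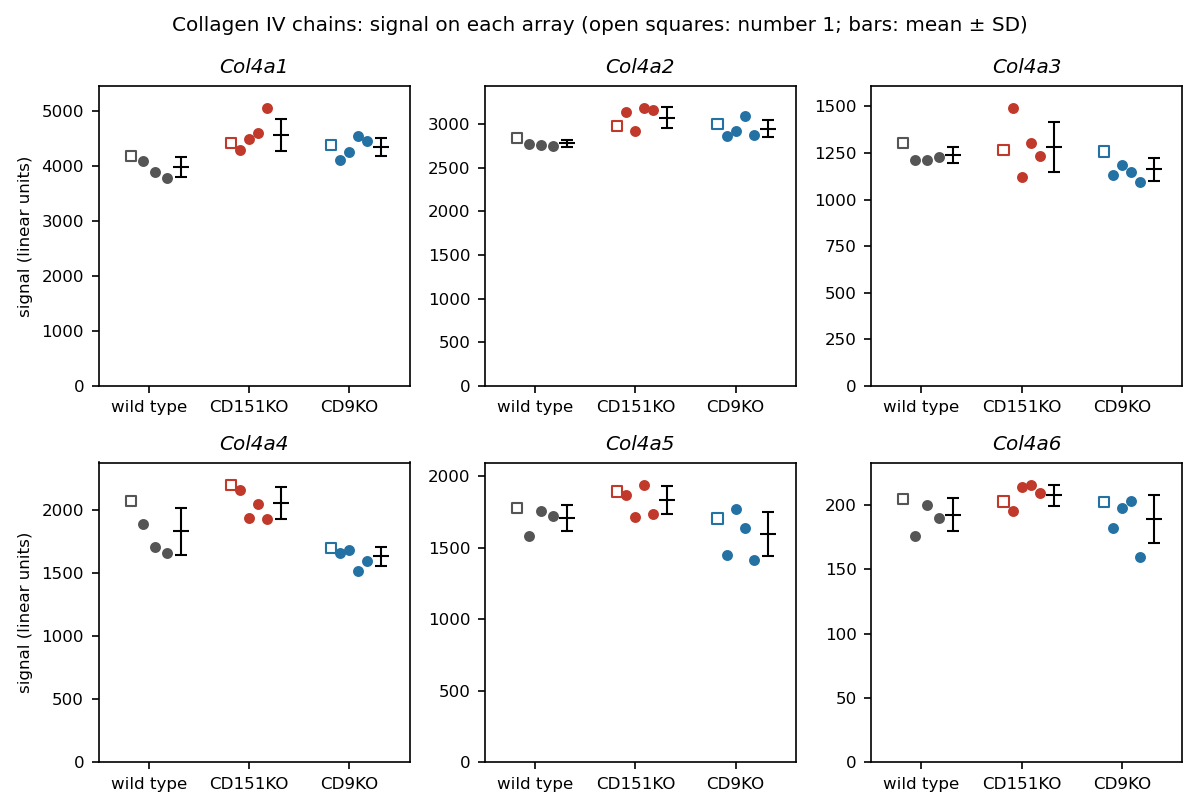
Signal of the 6 collagen IV chains on each array, in linear units from 0; open squares are the number 1 arrays, filled circles the others, and bars the mean ± SD (n = 4 for wild type and n = 5 for each knockout). Col4a2 lies higher in both knockouts than on any wild type array, and Col4a4 separates CD151KO (1929 to 2204) from CD9KO (1519 to 1701).

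Laminins are trimers of an alpha, a beta and a gamma chain, and the alpha chain binds the integrins. All 8 tested chains had a higher mean in CD151KO than in wild type, from 0.049 to 0.142 with a median of 0.108, and 0 of the 8 passed by limma (0.778% of all genes did), with 2 at an unadjusted p under 0.05 (11.1% of all genes). In CD9KO, 5 stood higher and 3 lower than wild type, and 1 of 8 passed, Lamc1, beside 5.51% of all genes. Between the knockouts Lama3 and Lamb3, 2 chains of the epithelial laminin-332, passed with the same sign, beside 10.1% of all genes.

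Lamb3 (chromosome 1, 193294353 to 193343878) read 787.5, 700.4, 662 and 710.6 in wild type, 801.3, 835.9, 711.1, 785.3 and 806.3 in CD151KO, and 655, 597.3, 681.3, 627.8 and 535.7 in CD9KO. The knockouts did not overlap, and wild type lay across the boundary between them. CD151KO was 1.268-fold higher than CD9KO (0.34 ± 0.064, limma, adjusted p = 0.00584). Against wild type the difference was 0.14 in CD151KO (adjusted p = 0.474) and -0.20 in CD9KO (adjusted p = 0.0796), so neither knockout passed alone.

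Lama3 read 1312, 1156, 1261 and 1293 in wild type, 1410, 1399, 1269, 1454 and 1350 in CD151KO, and 1125, 1179, 1289, 1225 and 1217 in CD9KO. CD151KO array 3 fell within the CD9KO range, and its other 4 arrays lay above it. The difference between the knockouts was 0.19 ± 0.047 (1.138-fold; limma, adjusted p = 0.0224), and 0.13 (adjusted p = 0.313) between CD151KO and wild type. Leaving out CD151KO 1, 2 or 4 or CD9KO 1 ended the call at differences of 0.16 to 0.18 (adjusted p = 0.0504 to 0.0572), and with the mean of both Lama3 probe sets, of which the second lay under the filter, it was 0.08 (adjusted p = 0.0978), and 0.02 between CD151KO and wild type (adjusted p = 0.857). Among epithelial markers, 1 of 5 alveolar type 2 genes passed between the knockouts, Abca3, higher in CD151KO by 0.36 (adjusted p = 0.0041). Napsa was higher by 0.10 (adjusted p = 0.0868), while Sftpc, Sftpb and Slc34a2 differed by 0.02, -0.01 and -0.01. Sftpc, at means of 28910 in CD151KO and 28520 in CD9KO, lay near the highest signal of all probe sets, 29667, where differences may be compressed. The mean log2 level of the list was 13.049 to 13.138 in CD151KO and 12.983 to 13.056 in CD9KO, none at 0. Of 7 alveolar type 1 genes 4 had a lower mean in CD151KO, and Clic5 passed (-0.13, adjusted p = 0.0303). The part of these cells in the laminin-332 values was not tested.

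Lama5, the alpha chain of laminins 511 and 521 of the alveolar wall, read 378.7, 391.3, 384.6 and 395.8 in wild type, 434, 402.1, 431.9, 420.3 and 442.8 in CD151KO, and 417.8, 456.5, 403.6, 429.9 and 406.3 in CD9KO. On this probe set all 10 knockout arrays lay above the 4 wild type arrays. The differences were 0.13 ± 0.042 (limma, adjusted p = 0.224) and 0.12 ± 0.042 (adjusted p = 0.0954), and the knockouts differed by 0.01 (95% interval -0.074 to 0.097). A second Lama5 probe set overlapped, with wild type at 301.5, 259.6, 268.8 and 258.4, of which the first was the highest of all arrays, and with differences of 0.08 in CD151KO and 0.07 in CD9KO (adjusted p = 0.578 and 0.374). The mean of all Lama5 probe sets, one of them below the filter, gave 0.07 in CD151KO (adjusted p = 0.395) and 0.03 in CD9KO (adjusted p = 0.608).

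Lamc1, the gamma chain of most laminins, read 521.9, 515.8, 545 and 545.6 in wild type, 534.2, 570.9, 571.3, 583.2 and 568.3 in CD151KO, and 624.4, 541.3, 593.9, 622.8 and 625.8 in CD9KO. Of the 5 CD9KO arrays 4 lay above every wild type array, and array 2 lay among them. The rise in CD9KO was 1.126-fold (0.17 ± 0.046, limma, adjusted p = 0.0434). A second Lamc1 probe set went the other way, with means of 178.1 ± 20.4 in wild type and 150.4 ± 23.9 in CD9KO (log2 difference -0.23, adjusted p = 0.159), and the mean of both gave -0.03 (adjusted p = 0.782). Leaving out any of 11 arrays, all 4 of wild type, CD151KO 2, 3 or 4 and CD9KO 1, 3, 4 or 5, ended the call at 0.16 to 0.18 (adjusted p = 0.0511 to 0.109).

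Lamb1, the beta chain that joins Lamc1 in laminins 111, 211, 411 and 511, read 1106, 1303, 1348 and 1301 in wild type, 1341, 1336, 1315, 1386 and 1603 in CD151KO, and 1508, 1329, 1451, 1434 and 1558 in CD9KO. The wild type array 1 was the lowest of all 14 and CD151KO array 5 the highest. The difference was 0.20 ± 0.067 (limma, adjusted p = 0.0788) in CD9KO and 0.14 (adjusted p = 0.455) in CD151KO. Of its other probe sets above the filter, one had a like difference in CD9KO (0.20, adjusted p = 0.1995) and one did not (-0.006, adjusted p = 0.97), and the mean of all 4 gave 0.09 (adjusted p = 0.319). Lama2, the alpha chain of muscle laminin, read 511.3, 512.5, 494.7 and 494.5 in wild type, 502.2, 520.2, 538.1, 522.3 and 591.7 in CD151KO, and 624.3, 510, 534.6, 546.9 and 552.3 in CD9KO, and differed by 0.13 ± 0.056 in CD9KO (adjusted p = 0.156). The highest Lama2 array, CD9KO 1, also had the highest smooth muscle level, 10.08, and the highest fibroblast level, 10.929. The part of these cells in the Lama2 values was not tested. Lama4, the alpha chain of endothelial laminin-411, ran from 570.3 to 677.6 and Lamb2, the beta chain of laminin-521, from 416.9 to 539.2, and the absolute log2 differences of these 2 genes did not exceed 0.074, with 95% intervals within -0.14 and 0.194.

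**Figure D3:**
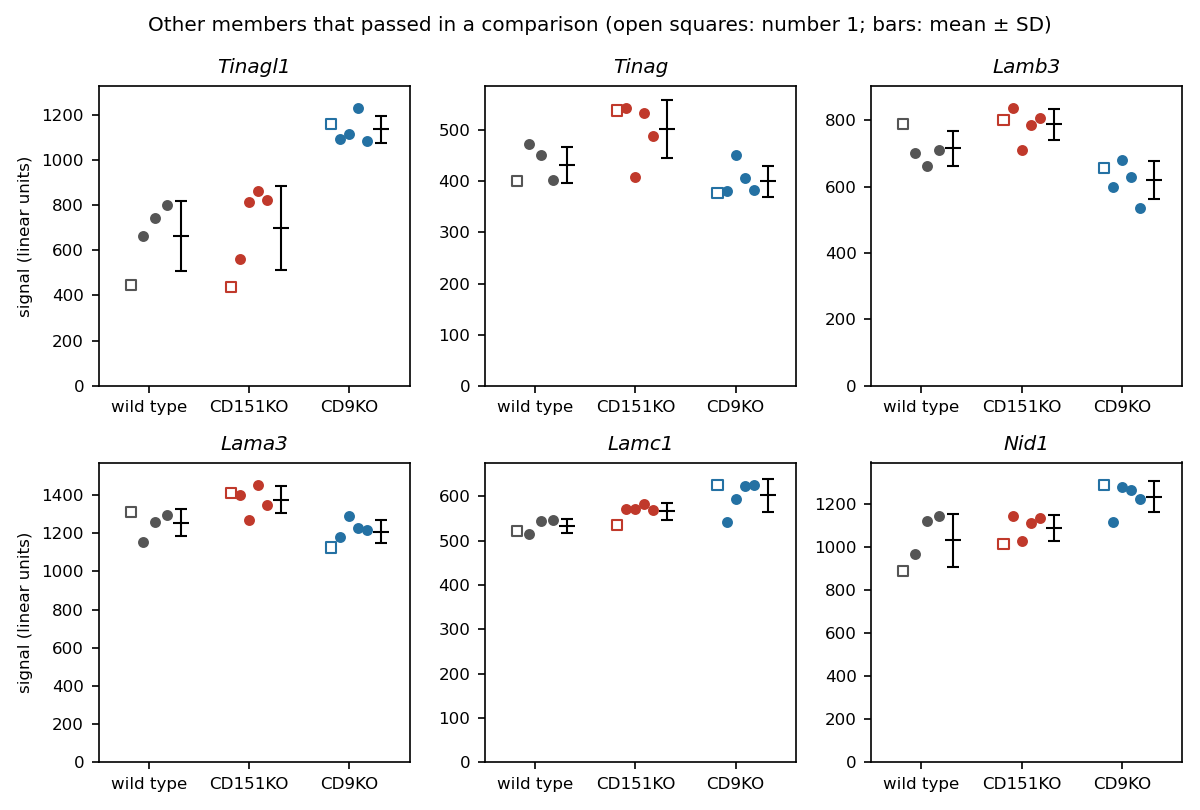
Signal on each array, in linear units from 0, for the other 6 genes that passed in a comparison; open squares are the number 1 arrays, filled circles the others, and bars the mean ± SD (n = 4 for wild type and n = 5 for each knockout). Tinagl1 lies at 1085 to 1228 in CD9KO, above all other arrays, and the arrays numbered 1 in wild type (446.2) and in CD151KO (437.9) are its lowest.

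Nidogens bridge laminin and collagen IV. Nid1 read 887.8, 967.8, 1122 and 1146 in wild type, 1014, 1143, 1030, 1112 and 1135 in CD151KO, and 1290, 1116, 1280, 1265 and 1225 in CD9KO. In CD9KO 4 of 5 arrays lay above all others, and array 2 lay within the wild type range. The rise in CD9KO was 1.2-fold (0.26 ± 0.071, limma, adjusted p = 0.0435), and the knockouts differed by -0.18 ± 0.066 (adjusted p = 0.0927). A dimmer Nid1 probe set showed no such step, at 325.3 ± 13.2 in wild type and 325.3 ± 25.8 in CD9KO (log2 difference -0.003, adjusted p = 0.981), and the mean of all Nid1 probe sets gave 0.10 (adjusted p = 0.377). Leaving out any of 8 arrays, wild type 1 or 3, CD151KO 3 or 4 and CD9KO 1, 3, 4 or 5, ended the call at 0.20 to 0.27 (adjusted p = 0.053 to 0.116). Nid2 was near the filter, at 53.29 to 77.07 over all arrays, and differed by -0.03 in CD151KO and 0.11 in CD9KO (adjusted p = 0.929 and 0.392).

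The proteoglycans carry heparan sulfate chains that hold growth factors in the membrane. Agrn, which links laminin to dystroglycan, read 1887, 1588, 1710 and 1764 in wild type, 1905, 1960, 1747, 1757 and 1732 in CD151KO, and 1753, 1652, 1753, 1661 and 1618 in CD9KO, with 0.11 ± 0.048 between the knockouts (limma, adjusted p = 0.165). Hspg2, which encodes perlecan, ran from 370.8 to 514.9, and Col18a1, the source of endostatin, from 225 to 268.6. No difference of these 2 genes exceeded 0.089 in size or passed. A second Col18a1 probe set read 158 to 172.9 in CD151KO and 174.9 to 194.2 in CD9KO, without overlap, at a difference of -0.14 ± 0.044 (adjusted p = 0.0619).

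Tinagl1 (chromosome 4, 130165600 to 130175122), a secreted protein of the basement membrane with a cathepsin-like domain, showed the largest difference among the 27. It read 446.2, 662.7, 742.8 and 798.5 in wild type, 437.9, 562.7, 811.9, 860.7 and 820.4 in CD151KO, and 1158, 1092, 1112, 1228 and 1085 in CD9KO. All 5 CD9KO arrays lay above the other 9, and wild type and CD151KO overlapped throughout. The rise in CD9KO was 1.733-fold over wild type (0.79 ± 0.185, 95% interval 0.399 to 1.187; limma, adjusted p = 0.0275), and CD151KO stood below CD9KO by 0.73 ± 0.174 (log2 difference -0.73, adjusted p = 0.0178). CD151KO differed from wild type by 0.06 (95% interval -0.332 to 0.456). Leaving out wild type 1 gave 0.62 (adjusted p = 0.0745), wild type 3 gave 0.80 (0.0684), CD9KO 3 gave 0.80 (0.0517), CD9KO 4 gave 0.77 (0.0635) and CD9KO 5 gave 0.81 (0.0626), each of which ended the call against wild type. The call between the knockouts held under each alternative tried, with adjusted p from 0.00359 to 0.0451.

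Tinag, its paralogue first described in kidney tubules, moved differently. It read 400.2, 471.8, 452.2 and 403 in wild type, 538.2, 542.7, 409, 533 and 489.1 in CD151KO, and 377.6, 381.7, 450.8, 405.9 and 383.6 in CD9KO. In CD151KO 4 of 5 arrays lay above all arrays of both other groups, and array 3 lay among them. CD151KO was 1.243-fold higher than CD9KO (0.31 ± 0.077, limma, adjusted p = 0.02) and 0.21 ± 0.081 higher than wild type (adjusted p = 0.329). Leaving out CD151KO 1, CD151KO 2 or CD9KO 5 ended the call at 0.28 to 0.30 (adjusted p = 0.051 to 0.0544).

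Npnt encodes nephronectin, the ligand of integrin alpha8 beta1, and its 5 probe sets disagreed. The brightest, which represents the gene, read 3528 to 4115 in wild type, 3589 to 4277 in CD151KO and 3634 to 4543 in CD9KO, with 0.07 in CD9KO (limma, adjusted p = 0.511). Of the others, one had means of 213.9 ± 22.3 (SD) for wild type, 183.5 ± 26 for CD151KO and 157.6 ± 34.8 for CD9KO (-0.42 in CD9KO, adjusted p = 0.04998 over every probe set), and one of 557.4 ± 58, 471.8 ± 52.1 and 413 ± 107 (-0.45, adjusted p = 0.0576). The dimmest was higher, at 130.5 ± 8.39 in wild type, then 142.4 ± 12 and 164.6 ± 16.1 (0.30 in CD9KO, adjusted p = 0.0255). On both probe sets with a lower mean CD9KO array 1, at 218.6 and 591.8, stood above the other 4 CD9KO arrays, which ran from 131.8 to 150.6 and from 324.6 to 432.1. Egflam, a ligand of dystroglycan known as pikachurin, ran from 440.9 to 581.7 with group means of 495.7 ± 42.1, 499.9 ± 37.4 and 499.1 ± 47.

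**Figure D4:**
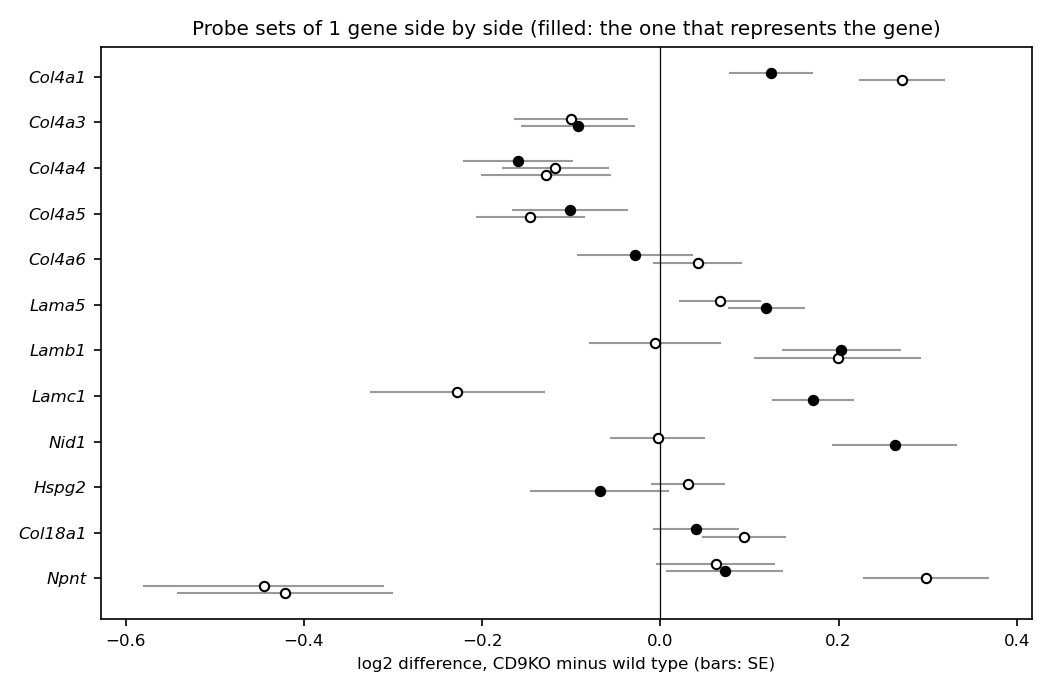
Log2 difference between CD9KO and wild type for each probe set above the filter of the genes with more than 1 such probe set; filled points represent the gene, open points are its other probe sets, and bars are standard errors. The probe sets of Lamc1 lie on opposite sides of 0 (0.17 and -0.23) and those of Npnt spread from -0.45 to 0.30, while all of Col4a3, Col4a4 and Col4a5 lie below 0.

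The Fraser complex proteins anchor epithelia below the basement membrane during development. Fras1 was dim, at 58.26, 71.29, 87.47 and 103.8 in wild type, 88.97, 97.87, 96.32, 86.14 and 81.65 in CD151KO, and 79.68, 60.35, 78.59, 57.76 and 70.82 in CD9KO. The knockouts did not overlap, and the wild type arrays lay from near the lowest CD9KO array to above every CD151KO array (0.32 ± 0.111 between the knockouts, limma, adjusted p = 0.079). Without wild type 1 or wild type 5, which enter this contrast through the shared spread, it passed at the same 0.32 (adjusted p = 0.0329 and 0.0468). Frem1 had a lower mean in both knockouts, 84.46 ± 12 for CD151KO and 84.74 ± 8.24 for CD9KO against 97.99 ± 8.96 for wild type (-0.19 and -0.18, adjusted p = 0.452 and 0.218). The calcium-binding SMOC proteins differed little: Smoc1 ran from 107.5 to 139 and Smoc2 from 150.4 to 183.1, and their 6 differences lay between -0.003 and 0.101.

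Genes whose proteins assemble together or that share a start region were compared over the 14 arrays, after group means were removed. The permutations shuffled these deviations over all 14 arrays without regard to group, which can make the p-values too small. Of the 10 pairs chosen, 8 had both genes above the filter. Each gene entered by the probe set that represents it, and second probe sets, as of Col4a6, Lama5 and Nid1, were not correlated. They can rank the arrays differently. In wild type the Col4a6 probe set used read 204.4, 175.7, 199.6 and 189.6, and its second one 151.8, 167.9, 165.5 and 185.2. The relations below therefore hold for the probe sets used. Col4a5 and Col4a6 followed each other (Pearson r = 0.71, permutation p = 0.00363, adjusted over the 8 pairs 0.0164; Spearman rho = 0.767, permutation p = 0.00182, adjusted 0.0146), and r was 0.544 without the 2 arrays farthest on Col4a5, CD9KO 5 and CD9KO 2. Nid1 and Nid2 had r = 0.664 (permutation p = 0.00973, adjusted 0.0259) and rho = 0.556 (0.0411, adjusted 0.083), with r = 0.444 without wild type 1 and CD9KO 2. Lama5 and Lamb2, partners in laminin-521, ran against each other, at r = -0.713 (permutation p = 0.0041, adjusted 0.0164) and rho = -0.64 (0.0158, adjusted 0.0632), with r = -0.574 without CD9KO 2 and CD151KO 2.

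Pairs that missed the threshold after adjustment included the closest neighbours on the genome. Col4a1 and Col4a2 had r = 0.522 (permutation p = 0.0564, adjusted 0.0902) and rho = 0.552 (0.0435, adjusted 0.083), with r = 0.635 without CD151KO 5 and CD151KO 2. Col4a3 and Col4a4 had r = 0.544 (permutation p = 0.0418, adjusted 0.0836) and rho = 0.534 (0.0519, adjusted 0.083), with r = 0.532 without CD151KO 2 and CD151KO 3. Lamb1 with Lamc1 gave r = 0.493 and rho = 0.468 (permutation p = 0.0761 and 0.0946, adjusted 0.101 and 0.108; r = 0.632 without CD151KO 5 and wild type 1), Lama3 with Lamb3 gave 0.373 and 0.503 (0.19 and 0.0698, adjusted 0.217 and 0.0931; r = 0.188 without wild type 3 and CD151KO 3), and Lama4 with Lamc1 gave 0.06 and 0.116 (0.837 and 0.693, adjusted 0.837 and 0.693; r = 0.079 without CD9KO 1 and CD9KO 4). No technical batch is given by which these relations could be recomputed, and the replicate numbers were not removed from them.

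Genes that act on the basement membrane were described from 5 lists. In CD151KO against wild type 0 of the 62 tested genes of these lists passed by limma (0.778% of all genes), and 6 receptors, 3 collagen modifying genes, 1 heparan sulfate gene, 4 other matrix genes and 6 proteases or inhibitors had an unadjusted p under 0.05, as did 11.1% of all genes. Of the receptors and adhesion partners 11 of 14 had a higher mean, beside 54% of all genes, and the 3 with the smallest unadjusted p were Itga7, an integrin chain of muscle (0.28, limma adjusted p = 0.133), the syndecan Sdc1 (0.15, adjusted p = 0.175) and Itgb4, the hemidesmosome chain that binds laminin-332 (0.18, adjusted p = 0.327). In the list of collagen IV folding, modification and cross-linking, 11 of 14 were higher, led by the lysyl hydroxylase Plod3 (0.16, adjusted p = 0.145), the galactosyltransferase Colgalt1 (0.13, adjusted p = 0.196) and the prolyl hydroxylation partner Crtap (0.09, adjusted p = 0.387). For heparan sulfate 9 of 11 were higher, with the sulfatases Sulf1 at 0.27 (adjusted p = 0.3) and Sulf2 at 0.09 (adjusted p = 0.467) and the sulfotransferase Hs2st1 at -0.19 (adjusted p = 0.491). Among other matrix proteins 9 of 11 were higher, with Fbln1 at 0.19 (adjusted p = 0.103), Bgn at 0.11 (adjusted p = 0.214) and Ntn1 at 0.19 (adjusted p = 0.429). Of the proteases and inhibitors 8 of 12 were higher, with the gelatinase Mmp2 at 0.35 (adjusted p = 0.092), Bmp1 at 0.16 (adjusted p = 0.147) and the inhibitor Timp3 at -0.23 (adjusted p = 0.226). The list medians were 0.071, 0.066, 0.059, 0.11 and 0.114, beside 0.008 for all genes.

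In CD9KO against wild type 4 of the 62 tested genes of these lists rose and 2 fell, where 5.51% of all genes passed in either direction. Among 14 receptors Itga6, the alpha chain of laminin-binding integrins, rose from 2430 ± 260 to 3099 ± 188 (0.35, limma adjusted p = 0.0373), and Dag1, which encodes dystroglycan, fell from 4026 ± 186 to 3474 ± 244 (-0.21, adjusted p = 0.0378). Of 14 collagen modifying genes the lysyl hydroxylases Plod1 (177.3 ± 17.6 to 240.5 ± 20.4; 0.41, adjusted p = 0.0172) and Plod3 (531 ± 25.8 to 637.3 ± 24.6; 0.26, adjusted p = 0.0122) rose. Hs2st1, 1 of 11 heparan sulfate genes, fell from 3392 ± 400 to 2395 ± 200 (-0.50, adjusted p = 0.0149), and Plat, tissue plasminogen activator and 1 of 12 proteases and inhibitors, rose from 995.6 ± 233 to 1663 ± 223 (0.75, adjusted p = 0.0435). Of 11 other matrix proteins 0 passed and 2 had an unadjusted p under 0.05.

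Between the knockouts, 9 of the 62 were higher and 2 lower in CD151KO, where 10.1% of all genes passed in either direction. Dag1 (0.24, limma adjusted p = 0.01), Sdc1 (0.20, adjusted p = 0.00927) and Sdc4 (0.13, adjusted p = 0.0477) were the receptors. Hs2st1 (0.31, adjusted p = 0.0402) and Sulf1 (0.38, adjusted p = 0.0232) were the heparan sulfate genes, and Hmcn1 (0.32, adjusted p = 0.0498) and Sparc (0.18, adjusted p = 0.0271), which encodes a collagen-binding protein, the other matrix genes. The proteases Mmp14 (0.28, adjusted p = 0.0246) and Bmp1 (0.18, adjusted p = 0.0159) were higher, while Timp3 (-0.43, adjusted p = 0.00279) and Plod1 (-0.27, adjusted p = 0.0394) were lower.

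Markers of other cell types also differed between the groups in part. Fibroblast genes had mean log2 levels of 10.709 to 10.758 in wild type, 10.8 to 10.868 in CD151KO and 10.572 to 10.929 in CD9KO. The fibroblast, smooth muscle, mesothelial, and club and ciliated levels did not overlap between the CD151KO and wild type arrays. Those of the other marker lists did. By gene, 5 of 6 fibroblast genes were higher in CD151KO than in wild type, and Tcf21 was lower (-0.32, adjusted p = 0.249). Pdgfra passed in CD9KO, and between the knockouts Col1a2 was higher and Tcf21 lower in CD151KO. Of 5 pericyte genes Kcnj8 passed in CD9KO, higher than in wild type by 0.36 (adjusted p = 0.0231). Another 3 were lower there, among them Rgs5 (-0.45, adjusted p = 0.127) and Notch3 (-0.12, adjusted p = 0.0973). Rgs5 was higher in CD151KO than in CD9KO (0.65, adjusted p = 0.0255). Adipose genes were higher in both knockouts for 3 of 3 with 0 passing by limma, led by Adipoq (0.60 and 0.55, adjusted p = 0.228 and 0.0981), with 2 in CD151KO and 1 in CD9KO at an unadjusted p under 0.05. Of 5 leukocyte genes S100a8 was higher in CD151KO than in CD9KO (1.61, adjusted p = 0.00926), and of 8 endothelial genes Cldn5 was (0.23, adjusted p = 0.0429). Club and ciliated genes had levels of 12.715 to 12.774 in wild type, 12.795 to 12.825 in CD151KO and 12.569 to 12.788 in CD9KO. Mesothelial genes were at 7.998 to 8.401 in wild type, 8.428 to 8.612 in CD151KO and 7.536 to 8.538 in CD9KO, with 5 of 5 higher in CD151KO, 1 at an unadjusted p under 0.05 and 0 passing by limma. Cardiac muscle genes, 5 of 5 higher in CD9KO with Myh6 passing, were at 10.013 to 10.262 in wild type, 9.78 to 10.59 in CD151KO and 10.403 to 10.817 in CD9KO. Alveolar type 1 genes were lower in CD151KO for 7 of 7, with 2 at an unadjusted p under 0.05 and 0 passing by limma. No listed marker was at 0, and the part of these cell types in the basement membrane values was not tested.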

How the data were processed

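Total RNA of whole lungs was hybridised to 1-colour arrays (4 wild type, 5 CD151KO, 5 CD9KO samples, grouped by their titles). The deposited values are normalized intensities on a linear scale, 1 per probe set and array, per the labels of the columns. The submitters' processing notes name Affymetrix Expression Console and MAS5 without versions, and the sources used here do not say which of them made the values.

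The members and gene lists were chosen with earlier results of these data known. Of 45101 probe sets, 34945 had 1 symbol in the platform annotation, 932 several, 9160 none and 64 were controls. The probe set with the highest mean represented a gene, and 5208 genes below the 40th percentile (log2 level 6.116) were left out. Values were taken as log2(signal + 16), so fold changes understate those of dim genes. limma 3.58.1 in R 4.3.3 (lmFit, eBayes with trend, 11 residual degrees of freedom) gave two-sided tests with Benjamini-Hochberg adjustment over 12985 genes; adjusted p-values of genes are limma's throughout. The median residual SD was 0.0882 for all genes and 0.103 for the 27 members, and the number of arrays limits the precision. Members with an unadjusted p under 0.05 in any comparison, or whose groups did not overlap, are given array by array; of each related list, genes that passed, or the 3 with the smallest p in CD151KO against wild type, are named. Markers and second probe sets were added beside results. Correlations used 100000 permutations over all arrays without regard to group, two-sided. The procedure was tested on simulated data. Alternatives were pseudocounts of 1 and 64, quantile normalization, median centring, no filter or one at the 60th percentile, a gene's mean over its probe sets, every probe set, fits of only the compared groups or with no trend, weighted arrays, a block for the replicate number, and leaving out arrays. Protein sequences were not used here.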

Additional observations from a re-analysis of the deposited data

Results flagged for a closer look

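For the 27 tested genes, 81 groups of arrays were examined for a single array far from the rest of its group, of which chance flags about 1 in 20, and 3 were found. Lamb1 read 1603 on CD151KO array 5, where the next array read 1386 and the lowest 1315. Egflam read 581.7 on CD9KO array 1, where the next read 493 and the lowest 467.6. Frem1 read 111.3 on wild type array 4, where the next read 94.69 and the lowest 92.15. None of these 3 genes passed in a comparison.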

How the results depend on the processing

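Of 9 calls among 26 gene results, 3 held under all 27 alternatives: Col4a4, Lamb3 and Tinagl1 between the knockouts. In CD151KO against wild type, 0 genes passed as reported, beside 0.778% of all genes. There was 1 with quantile normalization (0.77% of all genes) and 1 with each gene averaged over its probe sets (0.675%). Testing each probe set gave 1 of 44 (0.627%) and array weights gave 3 (2.58%). Leaving out each array gave 0 to 0 (0.185% to 0.755%). In CD9KO against wild type, 3 passed as reported, beside 5.51% of all genes, and 1 without a filter (3.06%). With each gene averaged over its probe sets 2 passed, Col4a1 and Tinagl1 (5.16%). With array weights 4 passed, Col4a1 in addition (8.39%). Of 44 probe sets tested singly 6 passed (6.78%), Npnt once higher and once lower. There was 1 with only the compared groups fitted (3.99%). There was also 1 without both arrays numbered 1 of wild type and CD151KO (3.12%). Leaving out each array gave 0 to 3, beside 1.22% to 6.67% of all genes. The count was 0 without wild type 1 or 3 or CD9KO 3, 4 or 5, and 1 without CD151KO 3 or 4 or CD9KO 1. Between the knockouts, 6 passed as reported (10.1% of all genes) and 3 to 8 when each array was left out (5.25% to 14.9%). Lamc1 in CD9KO turned to -0.029 with the mean of its probe sets, since its second probe set was lower. The cause of the other shifts was not tested. The median differences of the 27 genes moved by less than the spread between arrays (SD 0.0389).

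The replicate numbers were not taken to pair the samples: of 13 same-numbered pairs 6 had a correlation of deviations over 0.1 (range -0.13 to 0.592), and 6 of 14 arrays correlated best with their own number. Between wild type and CD151KO alone, the correlations were 0.592, -0.13, 0.451 and 0.263 for the numbers 1, 3, 4 and 5. On the first principal component these arrays lay at -18.48, -4.97, 0.81 and 1.48 in wild type. In CD151KO they lay at -17.23, -4.8, 1.11 and 2.46. Structure shared by number in these groups was not modelled in the main tests, and its source is not given in the labels. With the replicate block 0, 5 and 6 genes passed in the 3 comparisons, beside 0.839%, 12.3% and 14% of all genes. In CD9KO, Col4a4 (-0.17, adjusted p = 0.0315) and Lamb1 (0.23, adjusted p = 0.0266) passed in addition. Over all genes, the number passing in CD9KO against wild type was 715 as reported, 1591 with the replicate block and 158 without wild type 3, and in CD151KO against wild type 101 as reported, 335 with array weights and 24 without wild type 4. Nid1 between the knockouts passed without wild type 1 (-0.18, adjusted p = 0.0408).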
